A study of Homo sapiens with 6 samples.

Results

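The deposited expression table held 58938 entries, and 203 of them carried no Ensembl identifier. These 203 loci were chosen by that rule alone, as every entry whose identifier was not an Ensembl gene, and the other 58735 entries were Ensembl genes. The table gives the 203 loci running identifiers and no symbols, so each is called here by its position on GRCh38. The RNA came from HCT116, an established human colorectal cancer cell line, and was measured by RNA sequencing in 6 libraries. In 3 libraries the cells had received a vector and are labelled wild type. In the other 3 they had received a plasmid overexpressing MST3, a protein kinase encoded by STK24, and the study asked about the regulatory role of that kinase in colon cancer. All cells were lipofected at 60% density, had their medium changed at 6 hours and were collected at 30 hours. The label on each library is a number from 1 to 3 within its group, with no statement that the numbers mark separate cultures, so the p-values describe only how these libraries vary, which may be technical variation.

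Loci of this kind arise when a read-guided transcript assembly finds transcribed stretches that the annotation does not hold. Such stretches include transcripts of endogenous retroviruses and LINE-1 elements, short transcripts beside the starts of genes, antisense RNAs and pieces of RNA from repeated arrays such as the ribosomal DNA. Endogenous retroviruses are relics of germline infections, and the HERV-H family is known for its transcription in pluripotent stem cells. ESRG, the embryonic stem cell-related gene, is an annotated gene derived from a HERV-H element.

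Of the 203 loci, 190 lay on 23 assembled chromosomes (1 to 22 and X) and 13 on 8 scaffolds that are not placed within a chromosome. Chromosome 2 held 21 loci, chromosome 1 held 20 and chromosome 9 held 17. Chromosome 9 carried 8.37% of the loci against 3.87% of the annotated entries, and chromosome 1 carried 9.85% against 9.05%. The plus strand held 115 loci and the minus strand 88. None of the 203 overlapped the span of an Ensembl entry of the table on either strand. With RefSeq, the NCBI's gene annotation, on GRCh38.p14, 106 of the 190 loci on chromosomes overlapped a gene and 84 did not, and the scaffolds were not compared. There were 10 loci that overlapped another of the 203. The length used for scaling ranged from 200 to 33413 bases with a median of 811, and 87 loci were a single block while 116 were split into several.

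Many loci lay beside the ends of annotated genes. Of the 203, 60 lay within 5000 bases before the start of an annotated gene on the same strand, with a median gap of 186 bases, and 39 of these 60 were within 300 bases. Another 32 lay head to head with a gene on the opposite strand, with a median gap of 305.5 bases. A further 20 followed the end of a gene on the same strand with a median gap of 2328 bases, and 14 lay tail to tail with a gene on the opposite strand. The remaining loci comprised 72 with no annotated gene within 5000 bases and 5 on scaffolds with no annotated gene at all. Of the 60 loci before a gene start, 46 were a single block, against 7 of the 32 head-to-head loci.

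Sequences of the loci themselves were not analysed here, but RefSeq promoter windows on GRCh38.p14 (250 bases before to 50 bases after a gene's start) reached into some of them. Of 35116 windows, 51 overlapped 38 of the loci, 33 on the same strand and 18 on the opposite strand. The 5 windows below belong to loci that are named again with their values, and show how each locus meets the start of its neighbouring gene. Each is written 5′ to 3′ on the strand of the gene. Capitals mark the bases inside the span of the locus, any gaps between its blocks included.
KCNK1, chr1:233613856-233614155, plus strand: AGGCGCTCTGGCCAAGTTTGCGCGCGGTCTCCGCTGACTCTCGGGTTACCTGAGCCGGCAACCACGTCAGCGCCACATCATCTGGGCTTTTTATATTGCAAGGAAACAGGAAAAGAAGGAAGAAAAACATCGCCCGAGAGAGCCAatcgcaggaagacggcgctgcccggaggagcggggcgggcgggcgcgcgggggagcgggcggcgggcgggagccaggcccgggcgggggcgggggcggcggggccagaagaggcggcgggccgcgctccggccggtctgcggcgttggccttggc
ZFP91, chr11:58578813-58579112, plus strand: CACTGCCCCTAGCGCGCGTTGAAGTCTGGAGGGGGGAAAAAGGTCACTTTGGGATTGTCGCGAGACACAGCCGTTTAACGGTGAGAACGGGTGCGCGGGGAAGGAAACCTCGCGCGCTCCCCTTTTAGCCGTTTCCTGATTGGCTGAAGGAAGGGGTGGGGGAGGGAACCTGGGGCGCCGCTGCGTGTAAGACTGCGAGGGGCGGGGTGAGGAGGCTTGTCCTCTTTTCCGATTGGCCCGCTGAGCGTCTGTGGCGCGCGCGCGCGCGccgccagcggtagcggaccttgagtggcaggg
SLC22A31, chr16:89201629-89201928, minus strand: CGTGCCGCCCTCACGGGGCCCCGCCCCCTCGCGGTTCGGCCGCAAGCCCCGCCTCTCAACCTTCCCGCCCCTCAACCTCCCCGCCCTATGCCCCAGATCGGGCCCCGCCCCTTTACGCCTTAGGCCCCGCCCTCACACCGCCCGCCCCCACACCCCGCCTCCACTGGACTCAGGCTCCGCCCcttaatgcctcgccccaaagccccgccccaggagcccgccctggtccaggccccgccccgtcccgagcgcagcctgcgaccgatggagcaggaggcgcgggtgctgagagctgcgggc
BRWD3, chrX:80809828-80810127, minus strand: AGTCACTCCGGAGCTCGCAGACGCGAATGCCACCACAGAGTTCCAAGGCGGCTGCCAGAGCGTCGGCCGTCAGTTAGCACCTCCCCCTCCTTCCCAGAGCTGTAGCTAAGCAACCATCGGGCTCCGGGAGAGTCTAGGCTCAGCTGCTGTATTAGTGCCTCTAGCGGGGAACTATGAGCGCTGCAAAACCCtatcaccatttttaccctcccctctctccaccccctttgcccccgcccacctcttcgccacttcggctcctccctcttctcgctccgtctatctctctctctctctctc
ZDHHC11B, chr5:784680-784979, minus strand: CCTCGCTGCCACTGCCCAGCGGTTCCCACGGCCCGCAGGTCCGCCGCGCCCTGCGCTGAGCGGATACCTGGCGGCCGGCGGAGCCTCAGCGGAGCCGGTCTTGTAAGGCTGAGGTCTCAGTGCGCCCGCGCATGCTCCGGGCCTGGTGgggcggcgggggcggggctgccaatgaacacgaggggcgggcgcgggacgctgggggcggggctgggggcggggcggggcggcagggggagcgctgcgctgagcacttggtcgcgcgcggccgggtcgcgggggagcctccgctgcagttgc

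In the KCNK1 window 145 of the 300 bases lay in a locus on the same strand, and in the ZFP91 window 268 did. In the windows of SLC22A31 (182 bases), BRWD3 (191 bases) and ZDHHC11B (148 bases) the locus was listed on the strand opposite the gene. The capitals there are the reverse complement of the strand listed for the locus. The 51 windows had a median GC content of 70.0%, against 58.7% over all 35116 windows, and a median ratio of observed to expected CpG of 0.834 against 0.579. Each motif was searched on both strands. GGGCGG, the letters of the GC box, occurred in 38 of the 51 windows (74.5%), against 45.0% of all windows. CCAAT occurred in 17 (33.3% against 34.6%). TATAAA occurred in 1 (1.96% against 11.5%), and that one was the KCNK1 window, where the letters lie on the strand opposite the gene. These are matches of letters in windows that share base composition, and no factor's binding was measured. Some of the 51 windows overlap one another, such as those of ZFP91 and ZFP91-CNTF, so the same letters can be counted more than once.

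In the deposited descriptions 102 of the loci had a matching protein and 101 had none, and 6 had a protein domain. The 102 matches named 38 distinct proteins. The commonest were UPF0764 protein C16orf89 at 14 loci, zinc finger protein ENSP00000375192 at 11, GVQW1 at 8 and the LINE-1 ORF2 protein at 8. Proteins of retroviruses were named at 9 loci, proteins of LINE-1 at 9 and ESRG at 3. A class of uncharacterised human proteins, formed here from the descriptions, held 61 loci. It takes in the C16orf89, ENSP00000375192 and GVQW1 matches, which the descriptions themselves do not call uncharacterised. How the matches were made is not given in the sources used here.

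Levels are FPKM, fragments per kilobase of length scaled for each library, so loci of different length can be compared. The loci were mostly low, with 4 above a mean of 10 FPKM over the 6 libraries, 3 between 5 and 10, 91 between 1 and 5 and 105 below 1. The median was 0.983 FPKM, against 0.0240 over all 58938 entries, and 48.3% of the loci reached the mean of 1 FPKM required for testing, against 22.1% of all entries, 54.5% of protein-coding genes, 3.92% of annotated lincRNAs and 6.91% of annotated antisense RNAs. An entry that an assembly adds has reads by construction, so these shares are a description. Reads were found in all 6 libraries at 159 of the 203 loci.

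**Figure D1:**
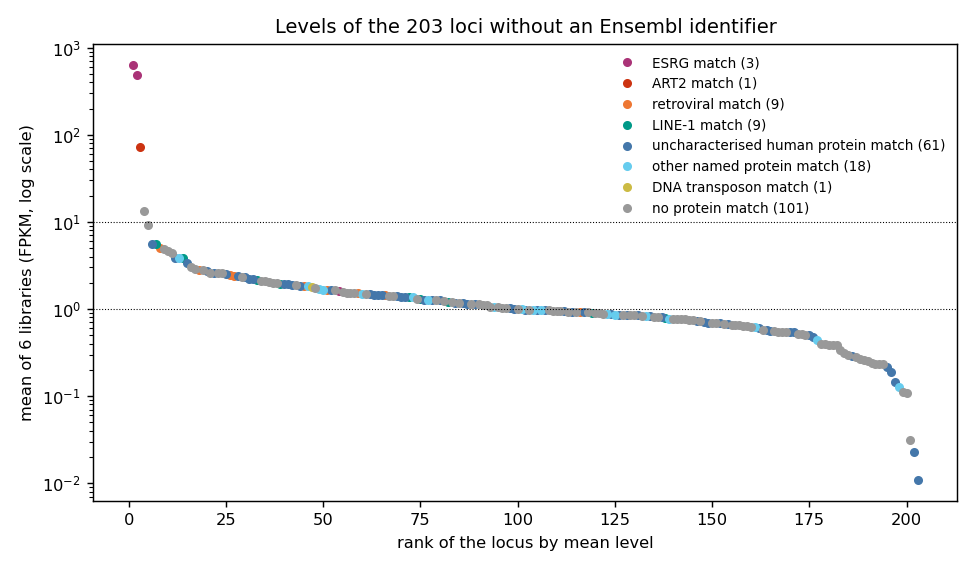
Mean FPKM over the 6 libraries (log scale) of each of the 203 loci, ranked, with colour giving the class of protein match in the deposited description and dotted lines at 1 and 10 FPKM. The 2 highest loci, both with an ESRG match, lie at 638 and 492 FPKM and the third, with an ART2 match, at 72.9 FPKM, while 196 loci lie below 5 FPKM.

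The 2 highest loci both matched ESRG. The locus chr1:68385502-68391951 is a single block of 6450 bases on the minus strand with no RefSeq gene over it, and its nearest annotated neighbour was the pseudogene AL139413.1, 3844 bases away on the same strand. It ranked 39 of 58938 entries by mean FPKM. It stood at 679, 782 and 671 FPKM in vector replicates 1 to 3 and at 490, 652 and 557 FPKM in MST3 replicates 1 to 3. Every MST3 library was below every vector library. The mean was 711 ± 61.8 FPKM (SD, n = 3) with vector and 566 ± 81.6 (SD, n = 3) with MST3, a ratio of 0.797. The log2 difference of −0.33 (SE 0.13) had an unadjusted p of 0.0384 and an adjusted p of 0.719 by limma, so it did not pass the test. Over all alternatives the unadjusted p ranged from 0.0121 to 0.139.

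The locus chr6:144922278-144930063 on the plus strand, 1349 bases in several blocks, carried an ESRG match together with a zinc knuckle, the domain that retroviral Gag proteins use to bind RNA. It ranked 56 in the table, and the nearest annotated gene, UTRN, which encodes the cytoskeletal protein utrophin, lay 69243 bases away. Its levels were 501, 568 and 504 FPKM with vector and 461, 491 and 427 FPKM with MST3. The groups again did not overlap, with a ratio of 0.876 and a log2 difference of −0.19 (SE 0.10, limma adjusted p = 0.719). UTRN itself averaged 5.10 FPKM with vector and 4.66 FPKM with MST3.

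The other locus with an ESRG match, chrX:16181228-16184131, was at 2.00, 1.83 and 0.660 FPKM with vector and 1.81, 1.88 and 1.57 FPKM with MST3, so its groups overlapped. The annotated ESRG gene was listed at 0 in all 6 libraries. Of the 3 ESRG-matching loci, those on chromosomes 1 and 6 together held 78.9 to 82.7% of the summed FPKM of the 203 loci in the vector libraries and 69.2 to 77.2% in the MST3 libraries.

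The third locus by level was KI270733.1:134254-140405, on a scaffold that carries ribosomal RNA genes. It lies on the plus strand, 5224 bases after the end of a 5.8S ribosomal RNA gene (RNA5-8SN2) on the same strand, and has 1508 bases in several blocks. Its match was ART2 of yeast, an open reading frame described on the strand opposite the large ribosomal RNA. In the ribosomal DNA the 28S gene follows the 5.8S gene within the same precursor. Whether these reads were 28S or precursor RNA was not tested.

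The KI270733.1 locus stood at 40.8, 30.9 and 53.0 FPKM with vector and at 120, 64.0 and 129 FPKM with MST3. All 3 MST3 libraries were above all 3 vector libraries, and MST3 replicate 2 was the nearest to the vector range. Means were 41.6 ± 11.1 and 104 ± 35.1 FPKM (SD, n = 3 each), a ratio of 2.50. The log2 difference was 1.27 (SE 0.30, 95% interval 0.58 to 1.97) with an unadjusted p of 0.00322 and an adjusted p of 0.719 by limma, so it did not pass the test either. The values rest on 799 to 3324 reads per library.

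Other structural RNAs are given beside it, and their part in this result was not tested. The 5.8S genes on the scaffolds were listed at 0 in every library, and the mitochondrial ribosomal RNAs MT-RNR1 and MT-RNR2 gave overlapping groups, with ratios of 0.965 and 0.897. RN7SL2, the RNA of the signal recognition particle, stood at 1.71, 5.06 and 7.64 FPKM with vector and at 462, 23.2 and 23.5 FPKM with MST3, so MST3 replicate 1 stood far apart there. At the scaffold locus that library was not the highest. Left out, it gave a log2 difference of 1.14.

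The order of the 6 libraries at that scaffold locus was looked for among the 98 tested loci, and not counted over all tested entries. The same order was found at 1 other locus. It was chr17:62065401-62065984, a single block of 584 bases on the minus strand that ends 118 bases before the start of MED13, a subunit of the Mediator kinase module, on the same strand. Its levels were 5.65, 3.40 and 5.89 FPKM with vector and 15.1, 8.58 and 16.5 FPKM with MST3, a ratio of 2.69, resting on 34 to 165 reads per library. The groups did not overlap, and the log2 difference of 1.25 (SE 0.26) had an unadjusted p of 0.00187 and an adjusted p of 0.719 by limma. MED13 itself was at 17.9, 20.9 and 18.3 FPKM with vector and 14.7, 19.3 and 15.6 FPKM with MST3, and its groups overlapped with a ratio of 0.867.

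**Figure D2:**
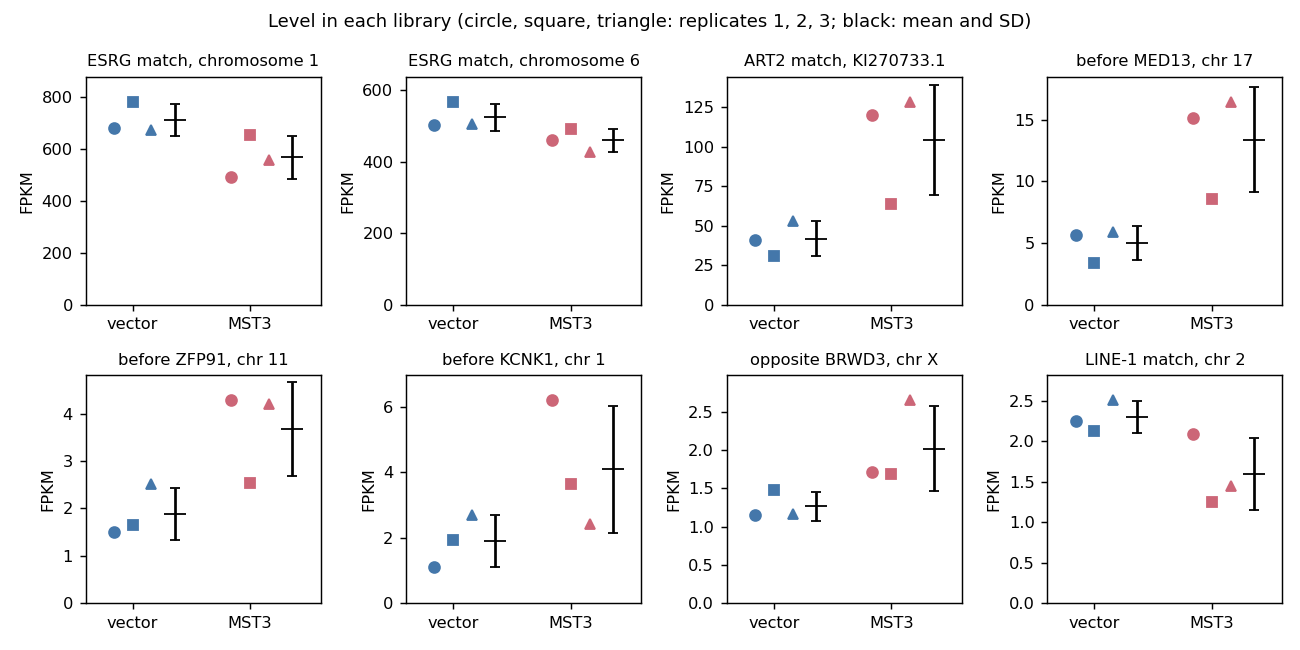
FPKM of 8 named loci in each library, 1 panel per locus with its own axis from 0, vector in blue and MST3 in red, symbols giving the replicate number and the black bar the mean and SD of 3 libraries. In the upper row the ESRG-matching loci lie lower in each MST3 library (490 to 652 against 671 to 782 FPKM on chromosome 1) and the loci on KI270733.1 and before MED13 lie higher, while the groups overlap at the locus before KCNK1.

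A fit over all 13036 entries with a mean of at least 1 FPKM set these differences against the table as a whole. It took in 98 of the 203 loci. At an adjusted p under 0.05 by limma, 1 entry was higher with MST3, or 0.00767% of those tested, and 0 were lower (0.0%). The entry that passed was STK24 itself, at 17.1, 17.4 and 17.4 FPKM with vector and 63.7, 72.2 and 76.0 FPKM with MST3 (adjusted p = 0.000998). None of the 98 loci passed in either direction, and their smallest adjusted p was 0.719. Without adjustment, 12 loci had a p under 0.05 by limma and 9 had one by limma voom on the reads recovered from the table. For 87 of the 98 loci the 95% interval of the log2(FPKM + 1) difference lay within 1 of 0. The added 1 FPKM shrinks the differences of low loci, so these intervals do not bound the fold change of FPKM.

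Of the 12 loci at an unadjusted p under 0.05, 10 were higher with MST3, which is 10.2% of the 98 against 3.51% of all tested entries, and 2 were lower, 2.04% against 1.86%. Without vector replicate 3 the fit gave 6 loci in both directions together, or 6.12% of those tested, against 3.95% of all entries. Without MST3 replicate 2 the fit gave 15, or 15.3%, below the 19.6% of all entries. In the higher direction alone the shares without that library were 13.3% and 9.91%. With voom it gave 9, or 9.18% against 6.68%, where both directions together were 12.2% against 5.38% in the fit on log2(FPKM + 1). Groups that did not overlap were found at 13 loci in the higher direction (13.3% against 5.19% of all tested entries) and at 4 in the lower direction (4.08% against 6.7%). The difference was positive at 62 of the 98 loci (63.3%) and negative at 36. It was positive at 46.6% of all tested entries, 57.5% of tested antisense RNAs and 55.2% of tested lincRNAs. The median log2 difference of the loci was 0.06 against −0.01 over all tested entries. By quantile normalization these medians were 0.03 and −0.03, and with voom 0.12 and 0.02. With a library left out the median of the loci ranged from 0.03 to 0.08. Of the tested loci, 25, 12 and 24 were highest in MST3 replicates 1, 2 and 3, against 11, 14 and 12 in vector replicates 1, 2 and 3. By quantile normalization 53 loci were positive and 45 negative, against 5533 and 7503 of all tested entries. Annotated entries at 1 to 5 FPKM, the range of 91 of these loci, had 3.55% at an unadjusted p under 0.05 in the higher direction and 6.15% with all MST3 libraries above, against 7.69% and 10.99% for those 91 loci. Annotated antisense RNAs had 9.84% at an unadjusted p under 0.05 in the higher direction and 11.9% with all MST3 libraries above, and lincRNAs had 6.02% and 7.69%. The median coefficient of variation over the 6 libraries was 23.4% for the tested loci, 26.5% for either annotated class and 11.9% for all tested entries.

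**Figure D3:**
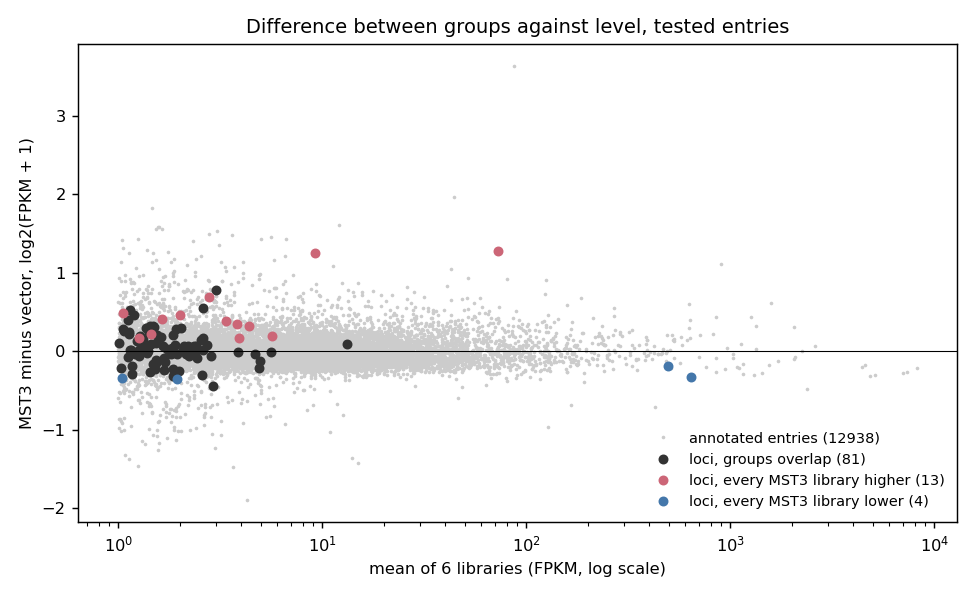
Difference between the group means on the log2(FPKM + 1) scale against mean FPKM (log scale) for all 13036 tested entries, with the 12938 annotated ones in grey and the 98 loci as large points, coloured where the groups do not overlap. Most loci lie between 1 and 5 FPKM, 13 red points are higher in every MST3 library and 4 blue points are lower, and the ESRG-matching loci are the blue points at the right.

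Among the loci beside gene starts, chr11:58578511-58579080 ends 30 bases before ZFP91, a zinc finger ubiquitin ligase, on the same strand, and fills most of the promoter window printed above. It was at 1.50, 1.64 and 2.51 FPKM with vector and 4.29, 2.52 and 4.20 FPKM with MST3, from 15 to 41 reads per library. The lowest MST3 library was only just above the highest vector library, the ratio of means was 1.95, and the log2 difference of 0.69 (SE 0.20) had an unadjusted p of 0.00958 by limma. ZFP91 had overlapping groups at a ratio of 0.845.

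The locus chr1:233613638-233614000 ends 3 bases before KCNK1, a potassium channel, again on the same strand. Its levels were 1.10, 1.93 and 2.68 FPKM with vector and 6.22, 3.65 and 2.41 FPKM with MST3, from 7 to 36 reads. These groups overlapped, with MST3 replicate 1 highest and a ratio of means of 2.15. The log2 difference was 0.78 (SE 0.30, unadjusted p = 0.0349 by limma), and without MST3 replicate 1 it was 0.49 (unadjusted p = 0.107 by limma). Over all alternatives that unadjusted p ranged from 0.0109 to 0.107. KCNK1 itself was at a ratio of 0.992.

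Of the 21 tested loci before a gene start on the same strand, 13 had a positive and 8 a negative difference, with a median log2 difference of 0.21 (0.39 with voom). Groups did not overlap at 3 of them in the higher and at 2 in the lower direction, where 5.19% and 6.7% of all tested entries did so. Of the 22 tested loci head to head with a gene, 16 were positive and 6 negative, with a median of 0.12 (0.20 with voom, 0.08 by quantile normalization) and 4 that did not overlap, all higher, against the same 5.19% of all tested entries. For the 38 tested loci with no gene within 5000 bases the counts were 20 and 18, with a median of 0.01 that turned to −0.04 by quantile normalization. These classes were not tested against each other.

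Across 17 tested pairs of a locus and the gene that starts just after it on the same strand, Pearson's r between the log2 differences of locus and gene was −0.41, and across 19 head-to-head pairs it was −0.06. These correlations are across pairs within the same 6 libraries, and neither carries a test. Of 57 such genes on the same strand, 20 had a lower mean FPKM than the locus before them.

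**Figure D4:**
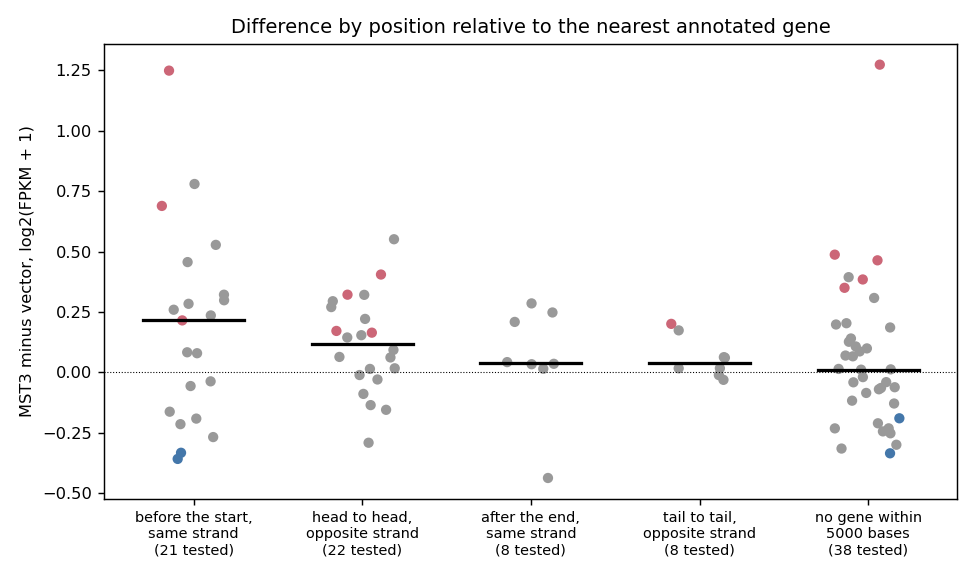
Log2(FPKM + 1) difference, MST3 minus vector, of the tested loci by position relative to the nearest annotated gene, with a bar at the median, red points where every MST3 library is higher, blue where every one is lower and grey where the groups overlap. The medians are 0.21 before a gene start on the same strand and 0.12 head to head, against 0.04 for loci after a gene end, 0.04 tail to tail and 0.01 with no gene within 5000 bases (by quantile normalization 0.0068, 5.3e-06 and −0.04), and 1 tested locus on a scaffold without genes is not drawn.

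Among the head-to-head loci, the locus chrX:80809937-80812788 starts 248 bases from BRWD3, a bromodomain protein, and was at 1.15, 1.48 and 1.16 FPKM with vector and 1.72, 1.69 and 2.66 FPKM with MST3 (ratio 1.60, log2 difference 0.40, unadjusted p = 0.0327 by limma). Without MST3 replicate 3 its log2 difference was 0.26, with voom it was 0.68, and the unadjusted p by limma ranged from 0.0246 to 0.0876 over all alternatives. In RefSeq a gene on the same strand as this locus, LOC124905202, also starts there, and 266 of the 300 bases of its promoter window lay in the locus. The locus chr22:29199214-29205810 lies 40 bases from EMID1 and was at 4.68, 3.63 and 3.14 FPKM with vector and 5.16, 4.95 and 4.80 FPKM with MST3 (ratio 1.30, log2 difference 0.32, unadjusted p = 0.0319 by limma, with a range of 0.00413 to 0.153 over all alternatives). At both, all MST3 libraries were above all vector libraries. The groups overlapped at both genes, with ratios of 0.956 for BRWD3 and 1.19 for EMID1.

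The locus chr5:784832-786220 overlaps the RefSeq window of ZDHHC11B, a member of the palmitoyltransferase family, on the opposite strand, whereas the Ensembl model of that gene in the table ends further away. It was at 1.88, 1.41 and 1.28 FPKM with vector and 2.13, 2.57 and 2.72 FPKM with MST3, groups that did not overlap (ratio 1.62, log2 difference 0.46, SE 0.13, unadjusted p = 0.00822 by limma). By contrast chr16:89201747-89203998, which lies 82 bases from SLC22A31, a member of the organic ion transporter family, and has a LINE-1 ORF2 match, was at 5.72, 6.00 and 5.25 FPKM with vector and 5.33, 5.16 and 6.35 FPKM with MST3. Its groups overlapped, with a ratio of 0.993.

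The locus chrX:54561072-54568726, a single block of 7655 bases, begins at the base after the end of GNL3L, a nucleolar GTPase gene, and runs on the opposite strand. It held 5.12, 5.32 and 5.11 FPKM with vector and 5.86, 6.44 and 6.04 FPKM with MST3, a small difference with little spread (ratio 1.18, log2 difference 0.20, unadjusted p = 0.0257 by limma). GNL3L was also higher in every MST3 library, at a ratio of 1.13. Whether the counting used strand is not given in the sources used here, so reads of a locus and of a gene abutting it on the other strand cannot be told apart.

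Retroviral matches apart from ESRG were found at 9 loci, of which 8 could be tested. The difference was negative at 7 of the 8, against 6967 of all 13036 tested entries. The median log2 difference of the 8 was −0.18, but in none of them did the groups separate. The highest, chrX:28501525-28507745, matched the Gag-Pol protein of gibbon ape leukemia virus and was at 5.51, 4.95 and 5.20 FPKM with vector and 5.01, 5.07 and 4.04 FPKM with MST3. The longest of the 203 loci, chr3:104283869-104445427 with 33413 bases, matched the Pol protein of endogenous retrovirus group K member 11 and was at 2.42, 2.55 and 2.21 FPKM with vector and 2.78, 2.65 and 1.91 FPKM with MST3. It was the only tested retroviral locus with a positive difference, 0.01, which turned to −0.010 by quantile normalization. All 8 were negative there, as were 7503 of all tested entries.

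LINE-1 elements copy themselves through an RNA that encodes ORF1, an RNA-binding protein, and ORF2, the reverse transcriptase. Of 9 loci with such a match, 7 could be tested, with 3 positive and 4 negative differences and a median of −0.01. The sign of that median is not fixed, since it was −0.03 by quantile normalization and 0.02 with voom, and members of the class stood on both sides. The locus chr9:66269994-66286138 was at 3.87, 2.87 and 3.03 FPKM with vector and 4.36, 4.79 and 4.06 FPKM with MST3 (ratio 1.35, log2 difference 0.35, unadjusted p = 0.0153 by limma), every MST3 library higher. The locus chr2:95817481-95819097, chosen after its values were seen as the other of the 2 loci lower at an unadjusted p under 0.05, was at 2.25, 2.13 and 2.52 FPKM with vector and 2.09, 1.25 and 1.44 FPKM with MST3 (ratio 0.694, log2 difference −0.36, unadjusted p = 0.0374 by limma).

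The 61 loci in the class of uncharacterised human proteins gave 30 tested loci, with 23 positive and 7 negative differences. Their median log2 difference was 0.08 and 5 were higher without overlap, where 5.19% of all tested entries were higher and 6.7% lower without overlap. By quantile normalization the counts were 19 and 11. The 101 loci with no protein match gave 40 tested loci, with 28 positive and 12 negative differences and a median of 0.11, of which 6 were higher and 1 lower without overlap. One of those, chr17:68180315-68181639, stood at 0.646, 0.542 and 0.946 FPKM with vector and at 1.29, 1.49 and 1.38 FPKM with MST3 (ratio 1.95, log2 difference 0.49, unadjusted p = 0.0111 by limma, and a log2 difference of 0.99 with a pseudocount of 0.01 FPKM), with no annotated gene within 5000 bases.

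Further loci among the highest 10 did not separate the groups. The locus chr12:116484394-116495448 was at 11.9, 14.4 and 11.8 FPKM with vector and 16.4, 11.1 and 13.6 FPKM with MST3. The locus chr3:5687598-5699665 was at 4.89, 5.73 and 5.36 against 4.07, 5.64 and 3.83 FPKM, and chr12:88944608-89010680, which abuts LINC02458 on the opposite strand, was at 5.15, 5.07 and 3.998 against 4.96, 4.58 and 4.25 FPKM.

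At the other scaffold loci named by level the groups overlapped. On the same scaffold, KI270733.1:142133-142766 on the minus strand was at 3.25, 1.92 and 3.65 FPKM with vector and 1.38, 2.66 and 2.56 FPKM with MST3. Also on it, KI270733.1:167712-171696 was at 2.31, 1.79 and 1.74 FPKM with vector and 1.27, 1.27 and 4.07 FPKM with MST3, where MST3 replicate 3 alone was high.

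Matches to known human proteins were found at the other scaffold loci named by level. The locus GL000218.1:38662-48638, with a match to tektin-4, a protein of ciliary microtubules, held 1.78, 1.83 and 1.78 FPKM with vector and 1.70, 1.79 and 2.18 FPKM with MST3. The locus GL000205.2:60035-63640, with a match to keratin 18, held 0.845, 2.31 and 0.709 FPKM with vector and 1.55, 1.57 and 2.02 FPKM with MST3. KRT18 itself, an epithelial keratin, was at 230 and 216 FPKM on average with vector and MST3. Whether reads were shared between this locus and that gene was not tested, and the value of this locus is uncertain.

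Summed over the 203 loci, FPKM came to 1477, 1632 and 1490 with vector and to 1372, 1481 and 1422 with MST3. MST3 replicate 2 reached into the vector range, and the ratio of means was 0.929 (two-sided exact permutation p = 0.2, where 3 libraries against 3 allow no p below 0.1). On the assembled chromosomes alone the sums were 1420, 1588 and 1423 FPKM against 1240, 1404 and 1274 FPKM, a ratio of 0.884, and as a share of all recovered reads the ratio was 0.874. In both the MST3 libraries lay below the vector libraries (exact permutation p = 0.1 each). The direction rested on the highest locus, chr1:68385502-68391951. Without it the ratio was 1.04 (exact permutation p = 0.2). Without the 2 ESRG-matching loci the sums were 297, 283 and 315 FPKM with vector and 421, 337 and 438 FPKM with MST3, a ratio of 1.34. Without the scaffold locus as well they were 256, 252 and 262 against 302, 273 and 310 FPKM, a ratio of 1.15. In the last pair of sums the MST3 libraries lay above the vector libraries, again at the smallest exact permutation p of 0.1. Fewer cells transcribing a locus and less RNA per cell cannot be told apart in such bulk RNA.

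**Figure D5:**
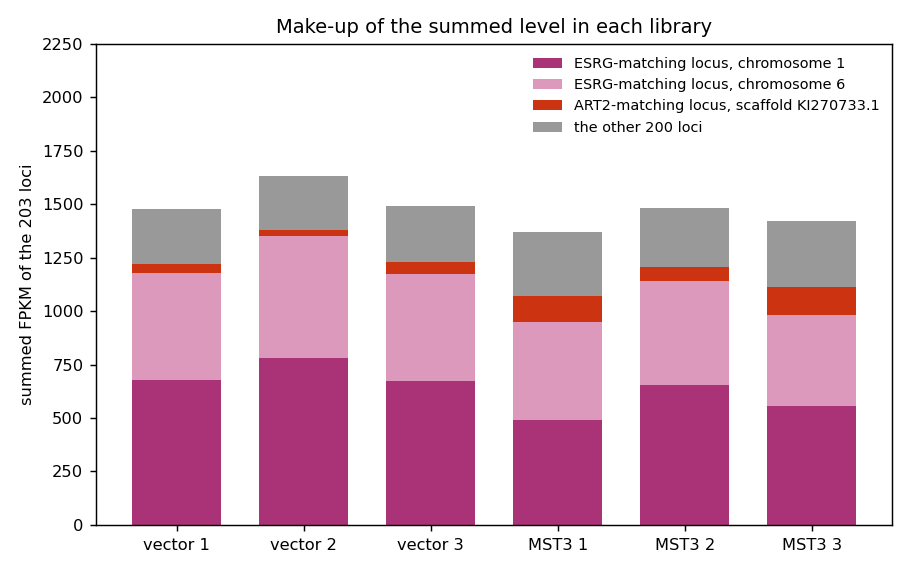
Summed FPKM of the 203 loci in each library as stacked bars from 0, split into the 3 highest loci and the other 200. The chromosome 1 locus makes up 45.0 to 47.9% of each vector bar and 35.7 to 44.1% of each MST3 bar, and the segment of the KI270733.1 locus is taller in each MST3 bar.

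The number of loci with any read was 184, 179 and 183 with vector and 181, 185 and 190 with MST3, a difference of 3.33 loci (exact permutation p = 0.4), which fell to 1.00 when MST3 replicate 3 was left out and to 1.83 when vector replicate 2 was, and was 5.50 when MST3 replicate 1 was. At 1 FPKM or more it was 105, 102 and 110 against 114, 116 and 126 loci, groups that did not overlap (exact permutation p = 0.1). That cut lies near the median level of the loci, 0.983 FPKM, and the same count over all entries was not made. With every library thinned to the reads of the smallest, the difference in loci with any read was 5.00 (exact permutation p = 0.2). MST3 replicate 1 was the shallowest library, with 15289213 reads against 17178700 to 17708029 in the others, and still had reads on 27442 entries of the table against 25099 to 25501 in the others.

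At the low end, 5 loci reached 1 FPKM in a single library and were at 0 in the other 5. They were chr7:148889825-148890047 at 1.57 FPKM in vector replicate 2, chr7:139448343-139448550 at 1.38 FPKM in MST3 replicate 2, and chr17:45175912-45176156, chr10:100902822-100903282 and chr2:65030380-65030715 at 1.43, 1.42 and 1.39 FPKM in MST3 replicate 3. Each was 208 to 336 bases long, so a few reads gave 1 FPKM. The shortest of all loci, chr20:44311424-44319803 with 200 bases, had reads in vector replicate 1 (0.569 FPKM) and MST3 replicate 3 (1.46 FPKM) alone. No fold is given for these, since they rest on too few reads.

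As a check of the cell line, epithelial markers were high, with KRT19 at 939 and 976 FPKM and EPCAM at 87.2 and 88.4 FPKM on average with vector and MST3. CDX2 was at 3.27 and 3.40 FPKM, KRT20 at 0.312 and 0.291 FPKM, and VIL1, LGR5 and CDX1 were at or near 0. Of 10 markers of other cell types, COL1A1 reached 4.16 and 4.35 FPKM and the other 9, leukocyte, endothelial and liver markers among them, averaged at most 0.170 FPKM in either group. SOX2, a stem cell factor, was one of these, at 0.0459 and 0.153 FPKM.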

How the data were processed

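The authors deposited a table of FPKM values for 6 libraries with position, length (bases), biotype and description per entry. HISAT2 is named per the submitters' processing notes; for the transcript assembler, the counting, the strand setting and the build, nothing is given in the sources used here. All 58735 Ensembl entries have the chromosome, start, end and strand of GENCODE 29 (GRCh38), so positions are given on that build. FPKM times length was a whole multiple of 1 step per library in 100.0% of values (tolerance 0.01), which gave 17296201 to 17708029 reads in the libraries with vector and 15289213 to 17209736 in those with MST3, of which 0.492 to 0.641% fell on the 203 loci.

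The test was limma 3.58.1 (R 4.3.3, lmFit and eBayes with trend, no replicate block, two-sided) on log2(FPKM + 1), over entries with a mean of at least 1 FPKM, with Benjamini-Hochberg adjustment over all 13036. Fold changes on this scale understate the change of low entries, so ratios of mean FPKM are given too. Sums and counts per library were compared by exact permutation of the 6 values. Loci were named by rule: the 10 highest, the 10 tested with the smallest p, the 5 highest on scaffolds, the longest, the shortest, and up to 5 with 1 library over 10 times the next. The loci and lists were chosen with earlier results of these data known. Alternatives changed the pseudocount (0.1, 0.01), the filter, the scaling, the variance model, the replicate block and the libraries. Voom on the recovered reads, sums without the 2 or 3 highest loci and thinned reads were chosen after seeing the data. Tables and plots used Python 3.11.15, pandas 2.3.3, scipy 1.17.1 and matplotlib 3.10.9. Promoter windows are RefSeq's on GRCh38.p14.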

Additional observations from a re-analysis of the deposited data

How the results depend on the processing

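Under every alternative run, 0 of the loci passed an adjusted p of 0.05 by limma and STK24 alone passed among all entries. The loci at an unadjusted p under 0.05, 12 as reported, numbered 20 with a filter of 0.1 FPKM (200 loci tested), 16 with no filter, 14 with the replicate block, 9 with voom, and 6 to 15 with each library left out in turn (6 without vector replicate 3). Over all entries such calls numbered 701 as reported, 1190 with the filter of 0.1 FPKM, 1462 with no filter, 1338 with the replicate block, 871 with voom, and 298 to 2554 with a library left out. The 15 loci and the 2554 entries both came without MST3 replicate 2, where the share was smaller among the loci (15.3% against 19.6%). In every other setting it was larger among the loci. The ratio of summed FPKM, 0.929, was 0.874 as a share of recovered reads and 0.884 on the assembled chromosomes alone. In both the groups did not overlap (exact permutation p = 0.1 each). It was 0.938 with equal sums and 0.911 to 0.961 with each library left out. It reversed to 1.04 without the highest locus, 1.34 without the 2 highest and 1.15 without the 3 highest. Those loci hold most of the sum. The 2 highest were lower, and the next was higher, in every MST3 library than in any vector library. The difference of 3.33 in loci with any read ranged from 1.00 to 5.50 with a library left out.

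Of 22 named and tested loci, 16 kept the direction of their log2 difference under all 17 alternatives. The other 6 had differences near 0, and the cause of each reversal was not tested. KI270733.1:167712-171696 (0.02 as reported) turned to −0.030 and −0.040 with pseudocounts of 0.1 and 0.01 and to −0.029 by quantile normalization, and ranged from −0.37 to 0.21 with a library left out. chr3:104283869-104445427 (0.01) turned to −0.010 by quantile normalization and ranged from −0.059 to 0.13. chr16:89201747-89203998 (−0.01) turned to 0.021 with voom and ranged from −0.090 to 0.038. With a library left out, chr12:88944608-89010680 (−0.03) ranged from −0.13 to 0.022, chr12:116484394-116495448 (0.09) from −0.042 to 0.22 and GL000218.1:38662-48638 (0.04) from −0.028 to 0.090.

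The replicate numbers were not taken as pairs, since the labels do not say what a shared number means. Deviations from the group means correlated across entries at r = 0.016, 0.226 and 0.035 for same-numbered libraries of the 2 groups. For differently numbered libraries r ranged from −0.148 to 0.122. With the replicate block the adjusted p was 0.337 for KI270733.1:134254-140405 and 0.0902 for chr17:62065401-62065984 by limma (0.192 to 0.999 and 0.0902 to 0.999 over all alternatives), and no call changed. For the summed FPKM the paired exact permutation p was 0.25. The filter of 1 FPKM left 105 of the 203 loci out of the reported fit, and how far depth limits them was not tested.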
